A study of Mus musculus with 24 samples.

Results

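The ES to progenitor step of REST wildtype cells was described across 19938 genes, from 3 arrays of embryonic stem cells (ES) and 3 arrays of neuronal progenitors (NP), all labelled RESTwt and of the strain Black Agouti 129. These 6 of the 24 arrays of the series were chosen by their titles. The stem cells had been differentiated in culture by a published protocol, and total RNA was hybridized to Affymetrix whole-transcript arrays. Cells of the same strain labelled RESTko gave 3 ES and 3 NP arrays on the same platform, and wildtype cells of the strain mixed 129Sv-C57Bl/6 gave 2 ES and 2 NP arrays on another; both served for comparison. The labels give the days of culture for no group, and they do not say how RESTwt cells relate to the RESTko line. The arrays are called biological replicates, but not said to come from separate cultures, so p-values measure only a spread between arrays. That spread was pooled over all 18 arrays of the platform that carried the RESTwt cells. Besides those above, these were 3 arrays of terminal neurons labelled RESTko and 3 labelled RESThet. Nothing in the sources says whether ES and NP arrays were processed together, so stage and processing batch cannot be told apart.

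Mouse stem cells self-renew under LIF, BMP and Wnt signals and a network of factors around Pou5f1, Sox2 and Nanog. When aggregates of such cells receive retinoic acid, most turn into radial glia-like progenitors marked by Pax6, which carry a hindbrain and spinal cord positional identity and go on to make neurons. REST is a zinc finger repressor that keeps neuronal genes low in cells that are not neurons. Its own level is known to fall as neural cells mature.

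The deposited values are log2 signals, and a difference is the mean at NP minus the mean at ES on that scale. A gene was called at a limma adjusted p under 0.05. Of 19938 genes, 13375 (67.1%) were called, 6177 (31%) higher and 7198 (36.1%) lower at NP. The groups of arrays did not overlap in 6384 genes that were higher (32%) and 7534 that were lower (37.8%). Because so many passed, the counts below also ask for a difference of at least 2-fold. By that rule 2170 genes (10.9%) were higher and 1352 (6.78%) lower, 668 and 290 of them by at least 4-fold. Every gene group count by that rule is to be set against the shares of 10.9% and 6.78%. The median difference over all genes was -0.07, against which the medians of gene groups are given. The median standard error (SE) was 0.10. As the spread was pooled over 18 arrays, an SE can be wider than the compared arrays alone would give. Pla2g1b, named below, had SDs of 0.05 at ES and 0.19 at NP but an SE of 0.27. With the compared groups fitted alone, 12854 genes were called. The mean signal of 10% of genes lay below 3.02 at ES and below 2.86 at NP, and that of 25% below 3.85 and 3.79. How far such signals lie above background cannot be given, so a gene near this low end at one stage has its difference, its fold and its rank limited by the scale. Arrays of ES correlated with each other at r of 0.996 to 0.997 across genes and those of NP at 0.993 to 0.996. NP array b lay nearest to the ES arrays, with r of 0.922 to 0.925, against 0.903 to 0.912 for arrays a and c. With each array centred on its own median the median difference became -0.40, and the counts 1425 higher and 2657 lower, so the balance between rises and falls depends on the scaling. Counts of gene groups with centring are to be set against these counts out of 19938 genes.

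The largest measured rise lay in Hoxa5, a homeobox gene of the hindbrain and cervical cord, from 3.06, 3.0 and 3.16 on the ES arrays to 10.42, 10.05 and 10.20 on the NP arrays (a difference of 7.15, SE 0.10, adjusted p = 1.07e-18). All 3 NP arrays lay far above all 3 ES arrays, which sat at the low end of the scale. In bulk RNA such as this, more cells expressing a gene and more RNA per cell cannot be told apart. Rarb, which encodes a retinoic acid receptor, had 3.71, 3.89 and 3.93 at ES and 10.49, 9.79 and 10.19 at NP (a difference of 6.31, adjusted p = 2.77e-15). Dhrs3, which reduces retinaldehyde, rose by 6.01 and Cyp26a1, which breaks retinoic acid down, by 5.93. Besides these known targets of retinoic acid, the list held genes of progenitors and young neurons.

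Dach1, a nuclear cofactor of eye and brain development, was at 3.18, 3.10 and 3.13 at ES and at 9.50, 9.33 and 9.48 at NP, a rise of 6.3 (adjusted p = 1.48e-17). Fabp7, the brain lipid-binding protein of radial glia, went from 3.20, 3.09 and 3.16 to 8.98, 8.80 and 9.73 (a rise of 6.02, adjusted p = 2e-14). Dcx, an X-linked gene for a microtubule protein of migrating neurons, went from 3.01, 3.24 and 3.20 to 9.43, 8.69 and 9.10 (a rise of 5.92, adjusted p = 1.45e-15). In each of these genes the groups were apart by over 5 log2 units, and the NP arrays varied more than the ES arrays. Meis1, a partner of Hox proteins, rose 58.0-fold (SE 0.08). The other genes among the 15 largest rises were Nrep (5.78), Hoxc5 (5.74), the ephrin receptor gene Epha3 (5.73), Hoxb2 (5.58), the nuclear receptor genes Nr2f1 (5.57) and Nr2f2 (5.45), and Lrrn1 (5.46), which encodes a membrane protein with leucine-rich repeats.

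The largest measured fall was that of Tcl1, a coactivator of Akt kinase, from 9.42, 9.35 and 9.47 at ES to 3.24, 3.51 and 3.52 at NP (a difference of -5.99, SE 0.12, adjusted p = 7.38e-17). Trh, which encodes the precursor of thyrotropin-releasing hormone, went from 10.80, 10.73 and 10.57 to 4.78, 5.59 and 5.06 (47.1-fold lower). Zfp42, a zinc finger gene used as a stem cell marker, went from 10.89, 10.82 and 10.96 to 4.89, 6.00 and 5.69 (41.0-fold lower). The 3 genes were bright on every ES array, Tcl1 sat near the low end at NP, and Zfp42 kept its lowest NP value on array a. Slc7a3, an X-linked gene for a carrier of cationic amino acids, went from 10.89, 10.86 and 10.81 to 5.55, 6.75 and 6.36 (24.7-fold lower, adjusted p = 4.89e-11).

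Further falls among the 15 largest lay in Tdgf1, the Nodal co-receptor (-5.27), Nr0b1, an X-linked nuclear receptor gene of stem cells (-5.26), and Morc1, which silences transposons in male germ cells (-5.04). Apela, which encodes a ligand of the apelin receptor, fell by 4.47. Serpinb6c (-5.20), Zfp980 (-4.91) and Zfp979 (-4.64) belong to families of near-identical genes, so their probe sets may also read relatives. Zfp980 spread from 8.87 to 9.82 at ES and from 3.40 to 5.53 at NP, the widest of the 30 genes. The others were Lrrc2 (-4.86), Pla2g1b (-4.82), Laptm5 (-4.82) and Lrrc31 (-4.71).

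**Figure D1:**
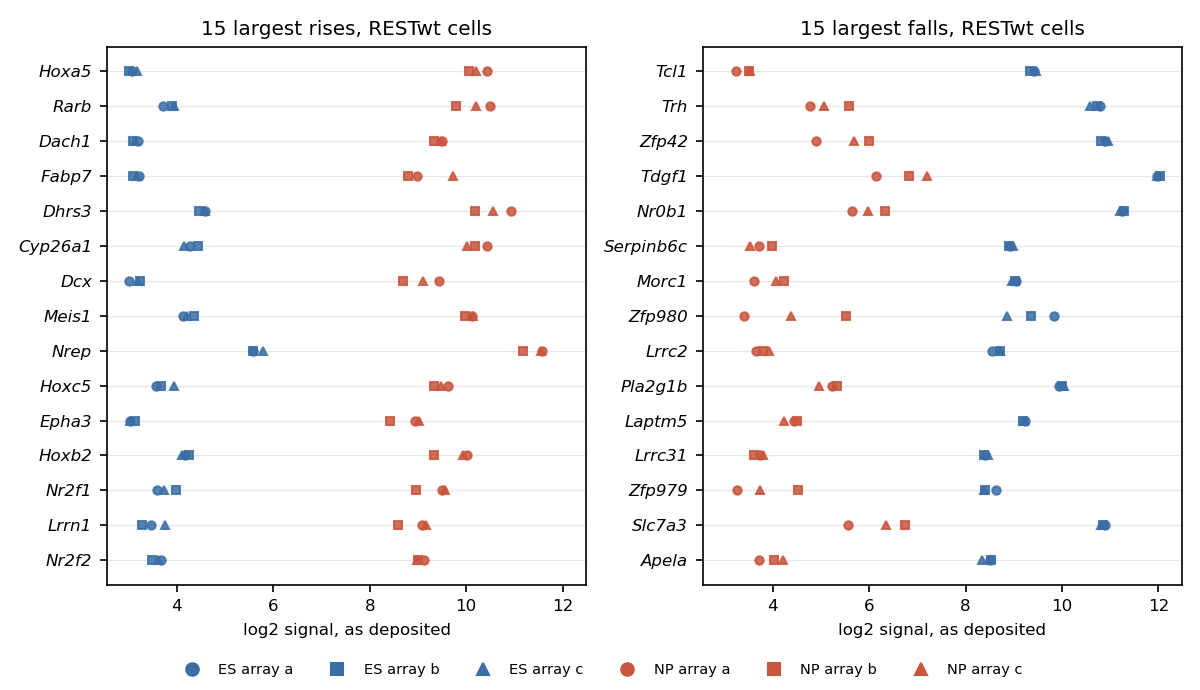
Log2 signal (horizontal axes) of the 15 genes with the largest rises and the 15 with the largest falls on each of the 3 ES arrays (blue) and 3 NP arrays (red) of RESTwt cells, with 1 marker shape per array letter. In every gene the groups are apart, and among the falls the NP values of Zfp980 spread the widest, from 3.40 to 5.53.

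Rest itself was at 8.95, 8.99 and 8.95 at ES and at 7.48, 7.51 and 7.46 at NP. It fell 2.80-fold (SE 0.07, adjusted p = 2.3e-12), and the 6 arrays fell into 2 tight groups. The log2 signal of 7.48 that remained at NP lay above the median of every NP array, 5.21 to 5.26 over all probe sets. In the cells labelled RESTko, Rest was at 8.61 ± 0.07 at ES and 7.47 ± 0.09 at NP (SD, n = 3), so this probe set does not show the label. The sources do not say which part of the gene was changed, and the probe set may lie outside it.

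Genes of neural progenitors and radial glia rose together: 27 of 30 were higher by at least 2-fold (10.9% of all genes were) and 0 lower, with a median difference of 2.80 against -0.07 for all genes. Meis2, a Hox partner, rose by 5.43, Zic1, a zinc finger gene of the dorsal neural tube, by 5.14 and Ednrb, the endothelin receptor gene of glial and crest precursors, by 5.11. Pax6, the defining factor of these progenitors, went from 4.86 ± 0.11 to 8.76 ± 0.17 (SD, n = 3 each, adjusted p = 6.24e-14). The intermediate filament genes Nes and Vim rose by 3.24 and 2.67. Sox1, another marker of neural progenitors, was already at 6.49 ± 0.17 at ES and rose by only 0.61.

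Proneural and early neuronal genes moved as broadly, with 34 of 39 higher by at least 2-fold and 1 lower (median 2.47). Neurod4, a helix-loop-helix factor of neuronal commitment, was at 2.78, 3.06 and 3.07 at ES and at 8.37, 7.76 and 7.80 at NP (a rise of 5.01). The zinc finger gene Myt1 rose by 4.50, the proneural factor Neurog1 by 4.05, the neurofilament gene Nefm by 4.02 and the helix-loop-helix gene Nhlh1 by 3.98. Of 10 neuron markers, 8 were higher by at least 2-fold and 0 lower (median 2.44). The vesicle fusion gene Snap25 rose by 2.60 and Syt1, the calcium sensor of release, by 2.70, while Stmn2 was at 9.01 ± 0.12 at ES and 9.23 ± 0.37 at NP (adjusted p = 0.189, or 0.00579 without NP array b). Slc17a6, the vesicular glutamate transporter of excitatory neurons, was near the low end of the scale, at 3.58 ± 0.3 and 3.0 ± 0.17 (adjusted p = 0.0578 without ES array c).

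In the Notch pathway, through which a cell that becomes a neuron holds its neighbours back as progenitors, 17 of 29 genes were higher by at least 2-fold and 1 lower (median 1.1). The ligand gene Dll1 went from 5.11, 4.94 and 4.92 to 7.87, 7.61 and 8.10 (7.29-fold higher, adjusted p = 4.02e-12), and the groups did not overlap. Dll3, an inhibitory ligand, rose by 2.83 and Dner, a ligand-like membrane protein of neurons, by 2.35. The ligand gene Jag1 differed by -0.18 (SE 0.11, adjusted p = 0.158), and was called lower under quantile normalization (adjusted p = 0.00954). Of the receptors and targets, Notch1 rose by 1.39, Hes1, a repressor that Notch induces, by 0.92, and Nrarp, a feedback inhibitor, by 2.60. The largest rises of the group were in Dtx4 (4.13), which encodes a ubiquitin ligase of the pathway, and in the coactivator gene Maml3 (2.68) among nuclear factors.

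Of 45 homeobox and patterning factors outside the Hox clusters, 22 were higher and 2 lower by at least 2-fold (median 0.75). Otx2, the factor of forebrain and midbrain that stem cells express too, went from 7.67, 7.67 and 7.46 to 3.32, 3.58 and 3.45 (a difference of -4.15, adjusted p = 1.93e-12). The dorsal neural tube genes Pax3 and Msx3 rose by 5.06 and 3.64, Irx3, of the caudal neural plate, by 3.86, and Lhx1, of interneurons, by 4.16. Tshz1, a zinc finger gene of the trunk, rose by 5.12. These are the members with the largest differences, and no list of genes by position was counted.

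Axon guidance and ephrin genes were higher by at least 2-fold in 29 of 44 cases and lower in 1 (median 1.53). Besides Epha3, the guidance receptor genes Robo3 (4.32), Nrp1 (4.01) and Dcc (4.0) had the largest rises, followed by the ligands Efnb2 (3.79) and Sema6d (3.28). Robo3 lets commissural axons cross the midline, and Dcc is the receptor for netrin. Splicing regulators of neurons rose as well, with 9 of 31 genes of that group higher by at least 2-fold and 1 lower (median 0.41). Celf3 rose by 3.5, Srrm4, which drives the inclusion of neuronal microexons, by 2.85, Nova1 by 2.59 and Celf2 by 2.5. Ptbp2, the neuronal polypyrimidine tract-binding protein, went from 8.96, 8.95 and 9.01 to 11.17, 11.03 and 11.12 (4.38-fold higher). Its widely expressed relative Ptbp1 fell by 0.47 (adjusted p = 0.00322), a call that ended under quantile normalization (-0.16, adjusted p = 0.276). Rbm47, a splicing regulator of epithelia, fell by 1.72.

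**Figure D2:**
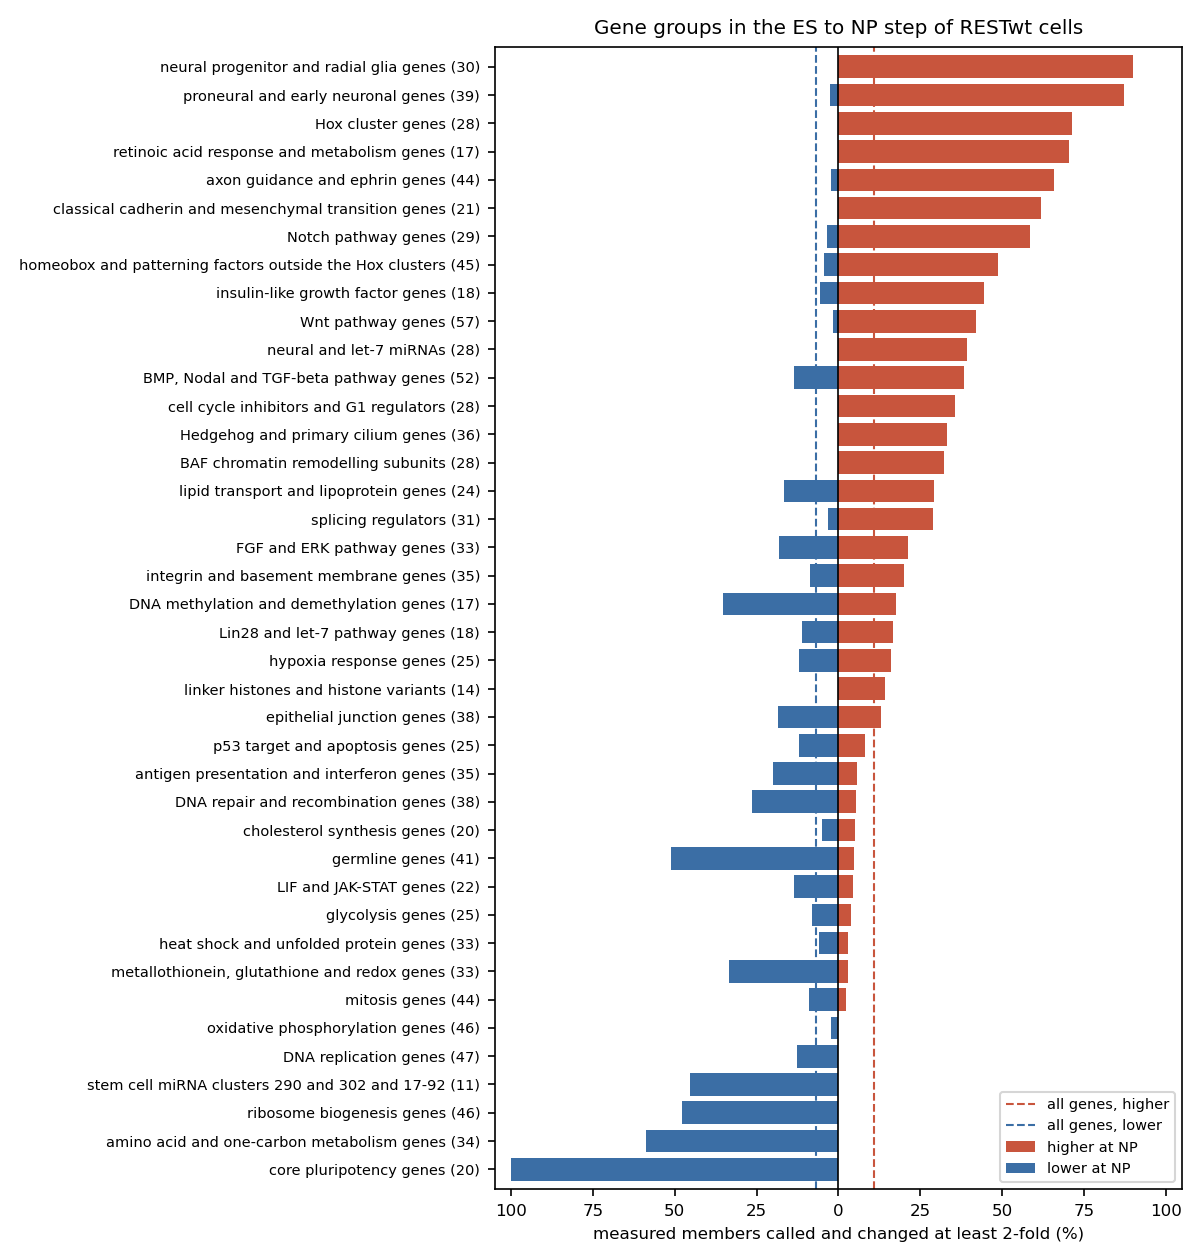
Share of the measured members of each gene group (horizontal axis, percent; member count in brackets) that were called and at least 2-fold higher (red) or lower (blue) at NP in RESTwt cells, with the share of all genes as dashed lines (10.9% higher and 6.78% lower). Neural progenitor genes stand at the top with 27 of 30 members higher, and the amino acid, ribosome biogenesis and pluripotency genes at the bottom with 0 higher.

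FGF and ERK genes, which pass the signal that primes stem cells for differentiation, were higher by at least 2-fold in 7 of 33 cases and lower in 6. Their median was 0.14, and it changed sign with quantile normalization (-0.04) and with centring (-0.19), which also left 4 members higher. The ligand Fgf4 fell by 3.27, its feedback inhibitor gene Spry4 went from 9.0, 8.81 and 8.70 to 5.13, 5.37 and 5.41 (11.6-fold lower), and the target Etv5 went from 9.98, 9.86 and 10.02 to 5.76, 6.90 and 6.67 (11.4-fold lower). The receptor Fgfr3 rose by 2.49 and the ligand carrier Fgfbp3 by 2.5, while another ligand, Fgf17, fell by 2.15.

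In the BMP, Nodal and TGF-beta group, 20 of 52 genes were higher and 7 lower by at least 2-fold (median 0.71). The 7 lower genes were Tdgf1, given above, Nodal, Lefty1, Lefty2, Gdf3, Inhbb, an activin subunit gene (-1.44), and Bmp4, a BMP ligand (-1.33). Nodal, the ligand, fell by 2.58, its inhibitors Lefty1 and Lefty2 by 4.06 and 4.33, and the related ligand Gdf3 by 4.26. Lefty2 was at 8.93, 8.78 and 8.72 at ES and at 3.85, 4.71 and 4.89 at NP (20.1-fold lower). The BMP receptor gene Bmpr1b rose by 2.55. In the LIF and JAK-STAT group, 1 of 22 genes was higher and 3 lower by at least 2-fold (10.9% and 6.78% of all genes were), with a median of -0.33. The count of lower genes was 5 under quantile normalization and 8 with centring. The receptor Lifr fell by 1.63, Socs2, a feedback inhibitor of cytokine receptors, by 1.99, and Stat4 by 2.96, while Jak2 rose by 2.47.

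Wnt, Hedgehog and insulin-like growth factor genes moved mostly upward. Of 57 Wnt genes, 24 were higher and 1 lower by at least 2-fold (median 0.56), led by the receptor Fzd3 (4.53), the roof plate ligand Wnt1 (3.66), the secreted inhibitor Frzb (3.06) and Lgr5 (3.05), a receptor for R-spondins. Of 36 Hedgehog and primary cilium genes, 12 were higher and 0 lower (median 0.55). The co-receptor gene Gas1 went from 6.21, 6.44 and 6.43 to 10.60, 10.34 and 10.60 (17.8-fold higher), and Boc, another co-receptor, rose by 3.79. Smo, the signal transducer, rose by 1.49, but the pathway's target Gli1 fell by 1.00 (adjusted p = 4.12e-06). Of 18 insulin-like growth factor genes, 8 were higher and 1 lower (median 0.78). Igf2, an imprinted growth factor gene, went from 5.27, 5.61 and 5.36 to 9.99, 9.69 and 9.53 (20.1-fold higher), the binding proteins Igfbp5 and Igfbp4 rose by 4.31 and 3.26, and the receptor Igf1r by 2.13.

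Adhesion genes shifted between cadherins. Of 21 genes of classical cadherins and mesenchymal transition, 13 were higher by at least 2-fold and 0 lower (median 1.45). Cdh2, N-cadherin, went from 5.70, 5.74 and 5.57 to 9.56, 9.47 and 9.73 (15.1-fold higher), Cdh8 rose by 4.88, Cdh11 by 4.79, and Zeb2, a repressor of E-cadherin, by 3.34. Cdh1, E-cadherin, went from 10.30, 10.19 and 10.21 to 8.87, 9.47 and 8.89 (2.23-fold lower, adjusted p = 0.000156). Epcam, an epithelial adhesion molecule, fell by 1.21. Neither group of arrays overlapped the other for these 2 epithelial genes, and both kept a level near 8 or 9 at NP.

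Epithelial junction genes as a group had 5 of 38 members higher (10.9% of all genes were) and 7 lower (6.78% of all genes were) by at least 2-fold, with a median of -0.09. With centring 14 were lower and 4 higher, where 2657 of all 19938 genes were lower and 1425 higher. The keratin gene Krt8 went from 8.37, 8.23 and 7.12 at ES to 10.34, 10.62 and 10.13 at NP, and Krt18 and Krt19 rose by 2.40 and 2.29. ES array c stood below the other ES arrays for Krt8. Krt17 fell from 7.51, 7.44 and 7.44 to 3.78, 3.85 and 3.75 (a difference of -3.67), with no overlap. Among 35 integrin and basement membrane genes, 7 were higher and 3 lower (10.9% and 6.78% of all genes were), with a median of 0.20, or -0.13 with centring. Itgb8, an integrin that activates TGF-beta in neuroepithelium, rose by 5.04.

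Cell cycle genes did not move as 1 block. Of 28 cell cycle inhibitors and G1 regulators, 10 were higher by at least 2-fold and 0 lower (median 0.38). Ccnd2, the D-type cyclin of neural progenitors, had 6.04, 6.00 and 6.05 at ES and 11.16, 11.48 and 11.53 at NP (41.1-fold higher, SE 0.15). The inhibitors Cdkn1c and Cdkn2c rose by 3.21 and 2.10, and Gadd45g, a growth arrest gene, by 2.78. Cdc25b, the phosphatase that starts mitosis, rose by 2.06, while 4 of 44 mitosis genes were lower by at least 2-fold, among them Kif20b (-1.24) and Aurka (-1.08). That count was 8 with centring, 1 under quantile normalization, 2 without ES array a and 1 without NP array a. Of 47 DNA replication genes, 33 were called lower (36.1% of all genes were) and 3 higher, with a median of -0.53. By at least 2-fold, 6 were lower, against 17 with centring, 4 under quantile normalization and 10 without NP array b. The largest fall there was that of Pola1, an X-linked polymerase subunit gene (-1.74), followed by Mcm10 (-1.5) and Orc1 (-1.43), both of origin licensing and firing. Pcna differed by -0.12 (SE 0.10, adjusted p = 0.284).

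DNA repair and recombination genes had 10 of 38 members lower by at least 2-fold (6.78% of all genes were) and 2 higher, with a median of -0.74. With centring 20 were lower and 0 higher, where 2657 of all 19938 genes were lower and 1425 higher. Chek2, the checkpoint kinase, went from 9.31, 9.26 and 9.29 to 6.81, 7.29 and 7.30 (4.46-fold lower, adjusted p = 2.09e-09). Fancb, an X-linked member of the Fanconi anaemia core complex, fell by 2.24, Msh6, of mismatch repair, by 1.5, and Xrcc5 and Xrcc6, which form the end-binding Ku dimer, by 1.48 and 1.43. Ung, which removes uracil from DNA, had a difference of -1.59. The falls touched several repair routes.

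Genes of DNA methylation and of the germline were among the groups with the most falls. Of 17 methylation and demethylation genes, 6 were lower and 3 higher by at least 2-fold (median -0.41). Tet1, a dioxygenase that oxidizes methylcytosine, was at 10.77, 10.76 and 10.67 at ES and at 7.66, 7.63 and 7.76 at NP (8.28-fold lower), and its relative Tet3 rose by 2.30. Dnmt3l, the cofactor of the new-methylation enzymes, fell by 3.29, the enzyme gene Dnmt3b by 2.03 and Zfp57, which protects imprints, by 2.04, whereas the maintenance enzyme gene Dnmt1 differed by -0.17 (adjusted p = 0.0507, or 0.0285 without ES array c and 0.0346 without NP array b). Of 41 germline genes, 21 were lower and 2 higher (median -1.21), with Tdrd12 (-3.86), of the piRNA pathway, and Hormad2 (-3.28), of meiotic chromosomes, the largest falls. Tdrkh, another piRNA gene, rose by 3.65. Prdm14, which stem cells share with primordial germ cells, fell by 3.22, and Dppa5a by 3.11.

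Subunits of the BAF chromatin remodelling complex, which exchanges members as progenitors become neurons, had 9 of 28 genes higher by at least 2-fold and 0 lower (median 0.57). Bcl11a rose by 3.36, the ATPase gene Smarca2 by 2.86, Smarcc2 by 2.15, Dpf3, a neuronal subunit, by 1.70 and Smarcd3 by 1.60. The other ATPase gene, Smarca4, rose by 0.78, and Actl6a, the actin-related subunit of progenitors, fell by 0.65 (adjusted p = 5.73e-05). Of 14 linker histone and histone variant genes, 2 were higher, Macroh2a2 (1.88) and H1f10 (1.19), and 0 lower.

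Amino acid and one-carbon metabolism was the metabolic group with the most falls: 20 of 34 genes were lower by at least 2-fold and 0 higher, with a median of -1.26. Slc7a7, a carrier of basic amino acids, went from 8.30, 8.19 and 8.25 to 4.62, 4.80 and 4.68 (11.7-fold lower, adjusted p = 1.73e-13). Cth, which makes cysteine, went from 9.55, 9.55 and 9.59 to 5.84, 6.56 and 6.71 (9.15-fold lower). The mitochondrial enzyme Mthfd2 of the folate cycle fell from 9.32, 9.30 and 9.37 to 6.97, 7.84 and 7.34 (3.86-fold lower). The branched-chain aminotransferase gene Bcat2 fell by 2.27. Asns, asparagine synthetase, went from 11.66, 11.66 and 11.72 to 9.55, 10.44 and 10.06 (3.16-fold lower, adjusted p = 3.71e-07). NP array a had the lowest values of Cth, Mthfd2 and Asns, and for none of the genes given by array did the groups overlap.

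Ribosome biogenesis genes fell nearly without exception. Of 46 genes, 45 were called lower (36.1% of all genes were) and 0 higher, and 22 were lower by at least 2-fold (36 with centring), with a median of -0.99. Dkc1, an X-linked pseudouridine synthase gene, fell by 1.75, and the others with the largest falls were autosomal: Tsr1 (-1.57), of small subunit maturation, Polr1b (-1.49), of RNA polymerase I, Heatr1 (-1.44), Ddx21 (-1.42) and Gnl3 (-1.41), nucleolar proteins. Tsr1 was at 10.58, 10.59 and 10.50 at ES and at 8.71, 9.21 and 9.03 at NP (2.97-fold lower, adjusted p = 9.6e-10). Myc, a known activator of these genes, was at 6.69 ± 0.21 at ES and 7.22 ± 0.27 at NP (adjusted p = 0.00442), a call that ended under quantile normalization (0.27, adjusted p = 0.113) and with centring (adjusted p = 0.217).

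The promoter windows of 3 genes are shown because they carry the motif searched in their group, each 250 bases before to 50 after the start site in RefSeq's GRCm38.p6, with the motif in capitals. CACGTG, the E-box that Myc binds and which reads the same on both strands, was in the windows of 10 of 41 ribosome biogenesis genes (24.4%), against 1483 of 15614 measured genes with a window (9.5%). In Tsr1 (chr11:74897830-74898129, plus strand) it covers positions 24 to 29, counted from the start site as 0. TGATGNAA, an element of ATF4 and C/EBP factors that was searched on both strands, was in 4 of 28 amino acid genes (14.3%), against 565 (3.62%), and in Asns (chr6:7693160-7693459, minus strand) it covers -23 to -16. DR5, a direct repeat of retinoic acid receptor sites with 5 bases between them, was searched on both strands too. It was in 2 of 14 retinoic acid genes, Rarb and Cyp26a1, against 11 of 15614 (0.0704%), and in Rarb (chr14:16575427-16575726, minus strand) it covers -53 to -37. A match describes the letters and is no evidence of binding in these cells.
Tsr1: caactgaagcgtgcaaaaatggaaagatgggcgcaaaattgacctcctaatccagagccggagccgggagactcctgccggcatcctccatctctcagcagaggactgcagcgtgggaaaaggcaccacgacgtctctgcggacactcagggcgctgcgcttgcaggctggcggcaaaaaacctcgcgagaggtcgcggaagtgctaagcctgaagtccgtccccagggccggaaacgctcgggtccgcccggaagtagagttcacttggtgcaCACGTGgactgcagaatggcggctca
Asns: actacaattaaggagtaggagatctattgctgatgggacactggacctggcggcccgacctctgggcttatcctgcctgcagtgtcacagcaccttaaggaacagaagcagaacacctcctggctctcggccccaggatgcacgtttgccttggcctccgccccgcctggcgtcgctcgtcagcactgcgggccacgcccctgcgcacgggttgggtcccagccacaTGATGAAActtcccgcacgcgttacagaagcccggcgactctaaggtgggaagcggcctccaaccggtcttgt
Rarb: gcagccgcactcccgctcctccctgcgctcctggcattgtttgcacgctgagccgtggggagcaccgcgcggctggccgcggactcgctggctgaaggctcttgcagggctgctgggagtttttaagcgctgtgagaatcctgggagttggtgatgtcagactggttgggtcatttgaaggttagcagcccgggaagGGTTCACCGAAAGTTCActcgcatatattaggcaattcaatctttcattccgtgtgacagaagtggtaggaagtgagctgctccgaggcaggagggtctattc

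Atf4, the gene of a stress factor known to act on some amino acid genes, fell by 0.83 (adjusted p = 3.52e-07), and Trib3, a known target, fell by 1.68. Whether the level of Atf4 bears on the fall of the amino acid genes was not tested. In the whole group of heat shock and unfolded protein genes, 1 of 33 was higher and 2 lower by at least 2-fold (median -0.29). Of all genes, 10.9% were higher and 6.78% lower, so this group did not exceed the background. Of 33 metallothionein, glutathione and redox genes, 11 were lower and 1 higher (median -0.55). Nqo1, a quinone reductase gene, fell by 2.48, the glutathione peroxidase gene Gpx2 by 2.44 and the transferase gene Gstm1 by 2.17. Sod2, the mitochondrial superoxide dismutase, fell by 1.77, and Gpx8, a peroxidase of the endoplasmic reticulum, rose by 3.31.

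Energy metabolism changed less. Of 46 oxidative phosphorylation genes, 0 were higher and 1 lower by at least 2-fold (median -0.21), the X-linked Cox7b (-1.47). Of 25 glycolysis genes, 1 was higher and 2 lower (10.9% and 6.78% of all genes were), with a median of -0.35. The regulator Pfkfb3 rose by 2.03, and the phosphofructokinase Pfkp and the glucose carrier Slc2a3 fell by 2.03 and 1.52. Ldha and Pkm differed by -0.20 and 0.15 (adjusted p = 0.0781 and 0.124). Both were called with an NP array left out, Ldha without array a (adjusted p = 0.0239) or c (0.0477) and Pkm without array b (0.014). Lipid carriers exchanged members, with 7 of 24 higher and 4 lower. Vldlr, a receptor for reelin and lipoproteins, rose by 2.99 and Fabp5 by 2.36. Apoe went from 11.98, 11.92 and 11.93 to 9.02, 9.40 and 8.88 (7.17-fold lower), and Fabp3 and Apoc1 fell by 2.89 and 2.36. Of 35 antigen presentation and interferon genes, 2 were higher and 7 lower, with Ifitm1 (-3.58) the largest fall. Cholesterol synthesis (1 higher and 1 lower of 20) and p53 target and apoptosis genes (2 and 3 of 25) had counts near or under the background.

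Hairpin genes of miRNAs were read by probe sets of their own, from total RNA prepared for whole transcripts; whether these signals came from hairpins or from longer host transcripts was not tested. Of 39 measured members, 36 had a mature sequence in the RefSeq table. Printed are chosen members with a difference of at least 2-fold, not a ranking, with the seed, bases 2 to 8, in capitals and GRCm38.p6 coordinates.
mmu-miR-17-5p (chr14:115043684-115043706, plus strand): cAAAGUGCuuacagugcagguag
mmu-miR-20a-5p (chr14:115044183-115044205, plus strand): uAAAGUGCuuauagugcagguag
mmu-miR-18a-5p (chr14:115043867-115043889, plus strand): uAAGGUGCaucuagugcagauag
mmu-miR-19a-3p (chr14:115044048-115044070, plus strand): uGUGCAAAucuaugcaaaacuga
mmu-miR-19b-3p (chr14:115044358-115044380, plus strand): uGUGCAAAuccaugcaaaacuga
mmu-miR-10a-5p (chr11:96317186-96317208, plus strand): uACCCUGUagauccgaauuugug
mmu-miR-10b-5p (chr2:74726074-74726096, plus strand): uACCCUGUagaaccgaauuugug
mmu-miR-99a-5p (chr16:77598940-77598961, plus strand): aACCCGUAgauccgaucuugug
mmu-miR-100-5p (chr9:41531437-41531458, plus strand): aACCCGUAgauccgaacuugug
mmu-let-7c-5p (chr16:77599672-77599693, plus strand): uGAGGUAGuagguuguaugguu
mmu-miR-9-5p (chr3:88215613-88215635, plus strand): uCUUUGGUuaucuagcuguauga

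The cluster of Mir17 and its neighbours, a set of hairpins cut from a single transcript and abundant in stem cells, fell. Mir19b-1 was at 9.06, 9.26 and 9.21 at ES and at 6.33, 6.35 and 6.29 at NP (7.22-fold lower, adjusted p = 2.65e-13). Its seed GUGCAAA is shared with Mir19a, which fell by 1.56. Mir17 and Mir20a, with the seed AAAGUGC, fell by 2.19 and 2.28, and Mir18, whose seed is AAGGUGC, by 1.79. The probe set of the host transcript Mir17hg fell by only 0.31 (adjusted p = 0.00992), a call that ended without ES array b (adjusted p = 0.0649). The stem cell hairpins Mir302a, Mir302b, Mir302c and Mir367 lay at the low end of the scale at both stages, with means of 2.11 to 2.83.

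The hairpins that rose included both members with the seed ACCCUGU, which lie inside the Hox clusters. Mir10b went from 2.39, 2.35 and 2.36 to 6.84, 6.41 and 6.81 (a difference of 4.32, adjusted p = 8.23e-15), and Mir10a rose by 3.05. Of those with the seed ACCCGUA, Mir99a rose by 3.03 and Mir100 by 1.16. Mirlet7c-1, which neighbours Mir99a on chromosome 16, rose by 1.97. Mir9-1 and Mir9-3, brain hairpins that share their mature sequence, rose by 1.67 and 1.72, and Mir124a-2, of neurons, by 1.64. Not all let-7 hairpins went one way: Mirlet7g fell by 0.99 and Mirlet7f-1 by 0.85. Lin28a, whose protein blocks let-7 maturation, fell by 2.08, and its relative Lin28b differed by 0.30 (adjusted p = 0.0586, or 0.0382 without ES array a and 0.0119 without NP array a).

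The labels were checked against markers of the cells named and of other cells. All 8 stem cell markers fell by at least 2-fold, and their mean level went from 10.87, 10.85 and 10.89 to 6.48, 7.44 and 7.30. A signal remained at NP. Pou5f1 was at 6.81, 7.98 and 7.70 on the NP arrays, Nanog at 7.64, 8.72 and 8.42, and Dppa5a at 9.0, 10.01 and 10.20. NP array a had the lowest of the 3 values for each, and the median array signal there was 5.26. Of 10 neural progenitor markers, 9 were higher by at least 2-fold and 0 lower; the neuron markers are given above.

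Of 7 lists of other cells, those of endoderm and fibroblasts had the most members higher. Of 13 endoderm markers, 7 were higher and 1 lower by at least 2-fold (median 1.47). Dab2 rose to 7.30 ± 0.10 and Gata6 to 7.06 ± 0.17, and the mean of the list was 4.45, 4.64 and 4.62 at ES and 5.67, 6.09 and 5.6 at NP. Of 12 fibroblast markers, 8 were higher and 1 lower (median 1.56). Col3a1 rose to 7.76 ± 0.42 and Pdgfrb to 7.13 ± 0.28, with list means of 4.86, 5.0 and 5.05 at ES and 6.5, 6.01 and 6.23 at NP. NP array b was the highest for endoderm and the lowest for fibroblast markers. Of 9 neural crest markers, 4 were higher and 2 lower by at least 2-fold (median -0.05). In that list Tfap2b and Tfap2a rose by 3.28 and 2.97, Mitf, the melanocyte factor, fell by 2.30, and Sox10 was at 5.05 ± 0.07 and 4.99 ± 0.03 (adjusted p = 0.58). Of 12 blood and endothelial markers, 4 were higher (2 with centring) and 2 lower (median 0.08, or -0.25 with centring). Cdh5, an endothelial cadherin gene, went from 3.79, 3.84 and 3.87 to 7.22, 7.03 and 6.64, but the endothelial markers Pecam1 and Tek fell by 2.88 and 2.57. Of 9 astrocyte and oligodendrocyte markers, 1 was higher (Pdgfra, 2.48) and 1 lower (Aldh1l1, -2.31) by at least 2-fold (median -0.17), and Gfap was at 3.88 ± 0.09 and 3.53 ± 0.06 (adjusted p = 0.211). Of 13 mesoderm and muscle markers 2 were higher and 0 lower (10.9% and 6.78% of all genes were). Their median was 0.08, or -0.25 with centring and -0.07 under quantile normalization. Of 10 surface ectoderm markers 0 were higher and 5 lower (median -0.51). In the mixed-strain cells, on the other platform, 2 of 12 fibroblast markers were higher and 2 lower by at least 2-fold. There 6 of 13 endoderm markers were higher and 1 lower, and 0 of 9 neural crest markers were higher and 2 lower. Of all genes there, 9.43% were higher and 8.24% lower. The part of these other cells in the changes described here was not tested.

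**Figure D3:**
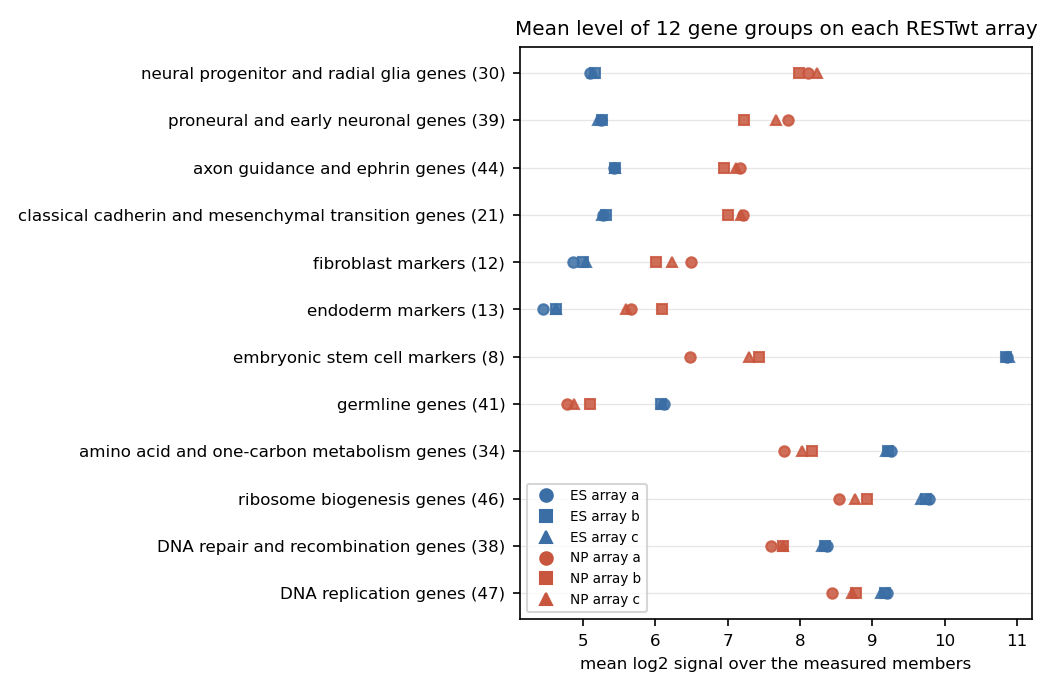
Mean log2 signal over the measured members (horizontal axis; member count in brackets) of 12 gene groups on each ES array (blue) and NP array (red) of RESTwt cells, with 1 marker shape per array letter. The stem cell markers fall from 10.85 or more to between 6.48 and 7.44, and NP array b lies nearest to the ES arrays in most groups but farthest in the endoderm markers.

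X-linked genes behaved differently from the autosomes, a pattern looked for after the values had been seen. Among genes above the median level, 192 of 332 X-linked genes (57.8%) were called lower and 81 (24.4%) higher, against 35.7% lower and 40.9% higher of 9623 autosomal genes. The median difference was -0.47 for X-linked genes, and from -0.004 to 0.079 for the 19 autosomes. Taken by array, the median X-linked level minus the median autosomal level was 0.68, 0.72 and 0.75 at ES and -0.01, 0.01 and 0.01 at NP, so the groups were far apart. The fall of 0.714 had an exact permutation p of 0.1 (two-sided), the smallest that 3 against 3 arrays can give. It was smaller when all genes were used, at -0.32.

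Xist, the RNA that coats the inactive X chromosome of female cells, rose from 4.72, 4.61 and 4.6 to 7.85, 8.34 and 8.76 (12.7-fold, adjusted p = 4.86e-07). Hprt, an X-linked purine salvage gene, went from 11.01, 10.95 and 11.03 to 8.71, 9.07 and 9.0 (4.20-fold lower). Atrx, Rlim, Huwe1 and Pgk1 fell by 1.43, 1.42, 0.89 and 0.75. Genes known to stay active on both X chromosomes were lower too: Eif2s3x by 1.24, Kdm5c by 0.94, Kdm6a by 0.62 and Ddx3x by 0.34, the last of which ended as a call under quantile normalization (-0.09, adjusted p = 0.271). In cells labelled RESTko the X minus autosomal level was 0.48 to 0.52 at ES and -0.04 to 0.02 at NP. Xist was at 5.04, 4.64 and 5.37 on their ES arrays and at 5.77, 7.9 and 8.06 on their NP arrays. NP array a, with the lowest Xist of these NP arrays, had an X minus autosomal level of -0.04. In terminal neurons labelled RESThet, Xist had a mean of 3.84 and the X minus autosomal level one of 0.04. In terminal neurons labelled RESTko, these means were 9.11 and 0.11. Whether the rise of Xist and the fall of X-linked genes are linked was not tested. The mixed-strain cells had 0.07 to 0.12 at ES and 0.09 to 0.16 at NP on their own platform, and Xist fell there (-1.73). Leaving out X-linked members moved the counts of the gene groups by at most 2, for example to 21 of 45 ribosome biogenesis and 19 of 33 amino acid genes lower by at least 2-fold. The sources give no sex for either line.

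**Figure D4:**
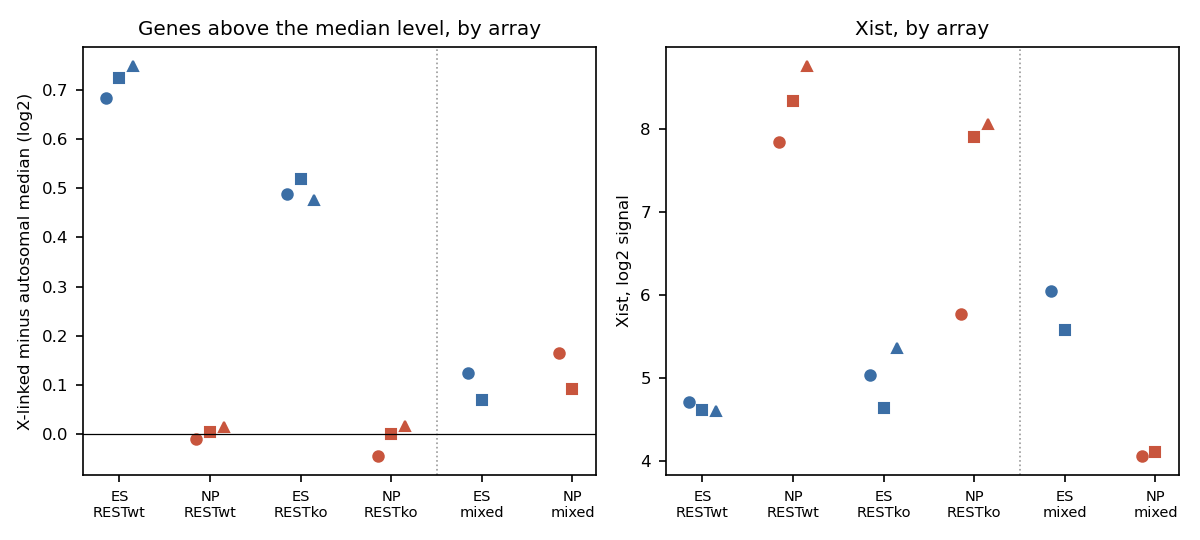
Left, the median log2 level of X-linked genes minus that of autosomal genes on each array, over genes above the median level; right, the log2 signal of Xist, for ES (blue) and NP (red) arrays of RESTwt, RESTko and mixed-strain cells, the last on another platform (right of the dotted line). The 3 ES RESTwt arrays sit at 0.68 to 0.75 and the 3 NP RESTwt arrays at -0.01 to 0.01, while Xist is high on the NP RESTwt arrays.

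The same step in cells labelled RESTko was tested against that of RESTwt cells with an interaction term. It differed in 970 of 19938 genes (4.87%), more positive in RESTko for 461 (2.31%) and more negative for 509 (2.55%). The count of more positive genes was 285 without ES array c of RESTwt cells and 301 without ES array a of cells labelled RESTko. Of the 2170 genes at least 2-fold higher in RESTwt cells, 1883 (86.8%) were also at least 2-fold higher in cells labelled RESTko (80.4% of the 2343 there, which were 11.8% of all genes), and the step differed for 287 (13.2%). Of the 1352 lower genes, 1143 (84.5%) were shared (77.7% of 1471, which were 7.38% of all genes), and the step differed for 120 (8.88%). Kbtbd11 fell by 1.4 in RESTwt cells and rose by 1.74 in cells labelled RESTko (interaction adjusted p = 4.23e-07). In the mixed-strain wildtype cells, on the other platform, Kbtbd11 rose by 3.12. Ogdhl, which encodes a relative of a citric acid cycle enzyme, fell by 1.02 in RESTwt and rose by 0.84 in cells labelled RESTko. Scg3, a granule protein gene, rose by 3.85 in RESTwt cells and by 1.30 in cells labelled RESTko. Its mean went from 3.39 at ES to 7.23 at NP in RESTwt cells. In cells labelled RESTko it was higher at both stages, at 8.18 and 9.48. The rises of Krt8 and Krt19 in RESTwt cells (2.46 and 2.29) had values of -0.11 and -0.23 in cells labelled RESTko, and 24 of 38 epithelial junction genes differed in their step.

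In the mixed-strain cells, the step was set beside that of RESTwt cells gene by gene, with no array shared. There 3617 of 18194 genes (19.9%) were called higher and 3454 (19%) lower, and 1716 (9.43%) and 1499 (8.24%) by at least 2-fold. Of 2064 genes at least 2-fold higher in RESTwt and measured on both platforms, 1173 (56.8%) were at least 2-fold higher in the mixed strain (70.3% of 1668 there), and 19 were called the other way. Of 1207 lower genes, 746 (61.8%) were also lower (51.6% of 1447), and 3 were called the other way. Over 16553 genes the differences correlated at r = 0.773, as a description across genes. The 30 largest changes had the same direction in both, with Zfp980 at -0.39 in the mixed strain (adjusted p = 0.0513). Some genes had values far apart: Robo3 rose by 4.32 and 1.00, Cdh8 by 4.88 and 0.84, and Laptm5 fell by 4.82 and 1.16. In contrast to those, the core pluripotency genes had a median of -2.99 in RESTwt and -5.71 in mixed-strain cells, with all 20 lower in both, and Pou5f1 fell by 3.88 and 7.83. Neither the platforms nor the strains can be told apart here, and the difference between these steps was not tested.

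**Figure D5:**
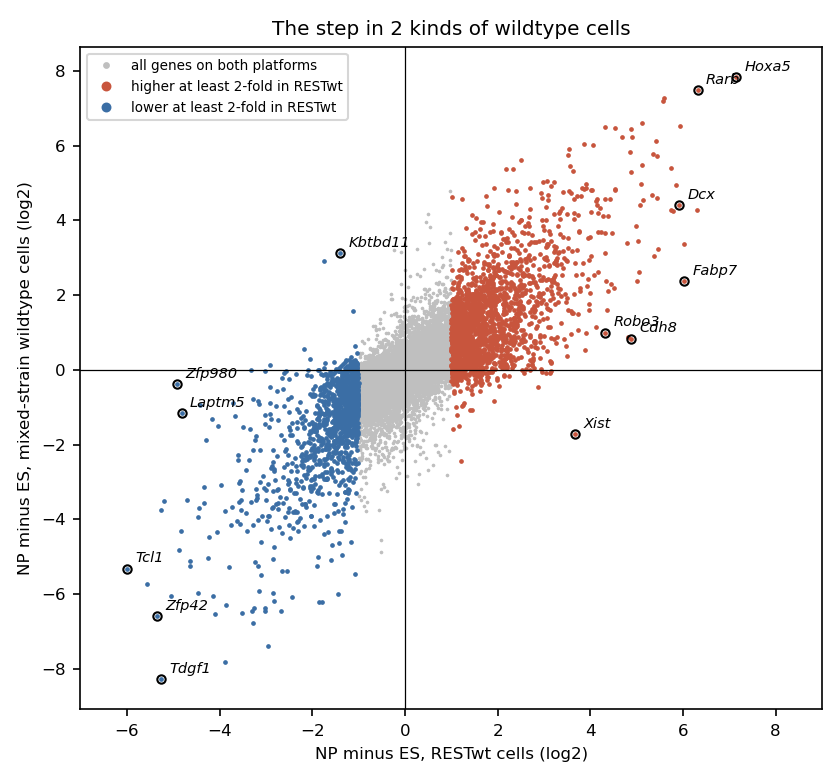
Difference between NP and ES of each gene measured on both platforms (16553 genes), in RESTwt cells (horizontal axis, log2) and in mixed-strain wildtype cells (vertical axis, log2), with genes at least 2-fold higher (red) or lower (blue) in RESTwt cells. Most coloured genes lie in the quadrants of equal sign, and Kbtbd11 and Xist are among those that do not.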

How the data were processed

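Values of 24 arrays on 2 platforms were used as deposited by the authors, as log2 signals per probe set. The software oligo 1.14.0 is named in the submitters' processing notes; how background and scale were set is not given in the sources used here. Probe sets were named by a platform table updated to GRCm38.p6. On the larger platform 21789 of 35556 probe sets carried a single symbol, 1621 several and 12146 none; a gene took its brightest probe set (19938 genes; 18194 on the other platform). All 18 arrays of the larger platform were fitted with a mean per group in limma 3.58.1 (R 4.3.3, lmFit and eBayes), and the 6 others apart; tests are two-sided, with Benjamini-Hochberg adjustment over all genes. The fit was tested on simulated data. Depth does not apply to arrays; how many there are sets the precision.

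The comparison, the 50 gene lists, the rules and the alternatives were chosen with earlier results of these data known. Named genes are Rest, the 15 largest rises and falls with groups that do not overlap (no predicted genes, olfactory or vomeronasal receptors, pseudogenes or small RNAs), up to 6 called members per list by size of difference (2 where none was called, all of lists under 10), the miRNAs, and 5 genes each way whose step differs. Sox1, Stmn2, Slc17a6, Jag1, Notch1, Hes1, Ptbp1, Gli1, Pcna, Dnmt1, Smarca4, Actl6a, Myc, Ldha, Pkm, Lin28b, Inhbb, Bmp4, the X-linked genes named beside Xist and the motifs were chosen after their values were seen. Letters a to c are not said to pair arrays, and they were not used as pairs. Same-letter deviations correlated at -0.26, -0.083 and -0.078, and those of different letters at -0.105 to 0.169. With 3 arrays per group these values constrain each other, so they cannot decide whether arrays shared a culture or batch. Genes without a single-symbol probe set were not analysed here.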

Additional observations from a re-analysis of the deposited data

Results flagged for a closer look

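The following genes are given because their step from ES to NP differed between cells labelled RESTko and RESTwt by the interaction test of limma (n = 3 arrays in each of 4 groups, adjusted p under 0.05, 4.87% of all genes); each value is the RESTko step minus the RESTwt step, in log2 units. The 5 most positive values were those of Kbtbd11 (3.132), Slitrk1, a synaptic adhesion gene (2.109), Fstl5 (2.106), the proteoglycan gene Srgn (2.073) and Ogdhl (1.86). Slitrk1 rose by 1.51 in RESTwt and by 3.61 in cells labelled RESTko, and Fstl5 by 3.0 and 5.11. Srgn overlapped between ES and NP in RESTwt cells (-0.20, adjusted p = 0.672), and its call was lost under 12 alternatives, with adjusted p of up to 0.114.

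The 5 most negative were Anxa3 (-2.758), Tagln (-2.697), Krt8 (-2.569), Scg3 (-2.549) and Krt19 (-2.516), and Krt18 was at -2.413. In RESTwt cells, ES array c lay below ES arrays a and b in Anxa3 (5.04 against 6.45 and 6.36), Tagln, Krt8 and Krt19. Anxa3 and Tagln overlapped between the RESTwt stages. In the mixed-strain wildtype cells, on the other platform, Kbtbd11 rose by 3.12, and Anxa3 and Tagln fell by 3.06 and 2.54, as in cells labelled RESTko. Slitrk1, Fstl5 and Scg3 rose there by 0.36, 0.92 and 2.86, and they rose in RESTwt cells and in cells labelled RESTko alike. Krt8 and Krt19 rose there by 0.70 and 0.75. These values lie between those of RESTwt cells (2.46 and 2.29) and of cells labelled RESTko (-0.11 and -0.23). Srgn differed there by 0.84 (adjusted p = 0.575), and Ogdhl was not measured. The cause of these differences was not tested.

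Among the other genes named in the text, the step was more positive in cells labelled RESTko for Lgr5 (0.937), Myt1 (0.971), Tfap2b (0.917), Meis2 (0.826), Wnt1 (0.823), Cdc25b (0.82), Frzb (0.819) and Cdkn1c (0.643), which rose in both. It was less negative for Prdm14 (0.796), Tcl1 (0.646), Mir19b-1 (0.608), Tet1 (0.409) and Sod2 (0.388), which fell in both. The rises of Efnb2 (-1.258), Snap25 (-1.109), Gpx8 (-1.005), Cdh5 (-0.745), Igfbp5 (-0.653), Igf1r (-0.554) and Cdh2 (-0.446) were smaller in cells labelled RESTko, and the fall of Fgf17 was larger (-0.724). Myc (-1.608) had a step of 0.54 in RESTwt and -1.07 in cells labelled RESTko.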

How the results depend on the processing

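Centring each array on its median gave 3921 genes higher and 12251 lower, 1425 and 2657 of them by at least 2-fold, and turned Mirlet7a-1 to -0.008; it also changed the sign of the median of 8 gene lists, quantile normalization that of 3. Beside the list counts given with their results, centring moved further counts of genes lower by at least 2-fold, where 2657 of 19938 genes were lower. It gave 8 of 33 heat shock, 6 of 25 glycolysis and 5 of 25 p53 genes. It also gave 4 of 46 oxidative phosphorylation, 5 of 35 integrin, 3 of 20 cholesterol, 3 of 57 Wnt and 3 of 28 G1 genes, which were near or under the share of all genes. Every probe set tested on its own gave 20240 calls, 11029 of them lower, with 3331 higher and 2090 lower by at least 2-fold, from more features. A test against a 2-fold difference (limma treat) gave 1442 and 772. Leaving out 1 array at a time gave 12479 to 13008 calls, 2113 to 2276 higher and 1309 to 1467 lower by at least 2-fold. For the difference between RESTko and RESTwt steps it gave 651 to 1136 genes, 285 to 577 of them more positive, and array weights gave 1537 with 793 more positive; the cause was not tested. The fall of X-linked against autosomal genes, added after seeing the data, was -0.317 over all genes, -0.625 with quantile normalization and -0.732 to -0.700 with an array left out. The replicate letter is not said to pair arrays. With it as a block, 13318 genes were called in place of 13375 (11961 with the compared groups alone). The block gave 949 in place of 970 for the difference of steps and 7095 for the mixed strain. Of 5447 values of 365 genes under the alternatives, 5336 kept their side of the threshold, 61 lost a call, 49 gained one and 1 reversed. Direction was compared only for genes called in the main fit. How far signals lie above background cannot be given, so small differences of genes near the low end are uncertain.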
